A study of Mus musculus with 4 samples.

Results

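Cytosolic ribosomal protein genes, the genes for the protein parts of the ribosomes that translate nuclear-encoded mRNA, were described across 8 clusters of mouse bone marrow (BM) CD8+ T cells. Members were the protein-coding genes whose symbol is Rpl or Rps with a number (and at most a final a, x or l), Rplp0, Rplp1, Rplp2 or Rpsa. The rule used no measured value and found 78 of the 17561 genes in the count table, 31 of the small and 47 of the large subunit. Rps3a1 and Fau, which also encode ribosomal proteins, were not matched by the rule and were kept apart, and Rpl3l and Rpl10l were not analysed here.

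The cells came from C57BL/6-background mice, wild-type or CRBN transgenic, 4 weeks (day 28) after stem cell transplantation (SCT) with BM and T cells from genetically matched donors. CRBN-transgenic mice carry a modified cereblon that lets lenalidomide act in mouse cells, and the study's methods describe young adult female recipients given Vk12653 myeloma cells before transplantation. Each of 4 groups was 1 library of 5 pooled mice. These were isotype control with vehicle (cIg), TIGIT inhibition with vehicle (αTIGIT), isotype control with lenalidomide, and TIGIT inhibition with lenalidomide, with antibody given from the day of transplant and lenalidomide or vehicle from day 14. The cell table numbers the libraries 1 to 4 without naming their treatments, so no treatments were compared here, and library numbers below are only names.

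A ribosome joins a small subunit, which reads the mRNA, to a large subunit, which forms the peptide bond, and each ribosomal protein is needed in about 1 copy per ribosome, except the acidic proteins of the stalk. Most vertebrate ribosomal protein mRNAs begin with a 5′ terminal oligopyrimidine (TOP) motif, a C at the first base followed by an unbroken run of pyrimidines, through which mTOR and LARP1 govern their translation and stability. Naive T cells translate little, and activation raises ribosome production before the cells divide.

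The annotated transcription start of the members the results turn on is shown here to make the motif visible. Each line gives 10 bases before and 20 bases from the RefSeq start (GRCm38.p6), 5′ to 3′ on the gene's strand, and capitals mark a C at the start with the pyrimidines that follow it.
Rps6 (chr4:86857348-86857377, minus strand): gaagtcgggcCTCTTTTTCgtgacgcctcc
Rps27 (chr3:90213629-90213658, minus strand): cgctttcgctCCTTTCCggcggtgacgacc
Rps21 (chr2:180257369-180257398, plus strand): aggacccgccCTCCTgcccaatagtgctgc
Rpl38 (chr11:114668570-114668599, plus strand): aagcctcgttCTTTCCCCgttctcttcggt
Rps15a (chr7:118116128-118116157, minus strand): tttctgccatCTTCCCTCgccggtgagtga
Rpl35 (chr2:39005112-39005141, minus strand): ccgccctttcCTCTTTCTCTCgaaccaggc
Rplp2 (chr7:141447641-141447670, plus strand): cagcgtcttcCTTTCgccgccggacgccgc

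A second set shows members whose annotated start does not open a TOP run of at least 5 pyrimidines, so that no base is in capitals. Rps27l and Rps28 are among those whose levels departed most from the other members.
Rps27l (chr9:66946076-66946105, plus strand): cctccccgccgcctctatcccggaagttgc
Rps28 (chr17:33824543-33824572, minus strand): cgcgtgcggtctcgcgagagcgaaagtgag
Rplp0 (chr5:115559457-115559486, plus strand): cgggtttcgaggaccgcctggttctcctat
Rpl36a (chrX:134585644-134585673, plus strand): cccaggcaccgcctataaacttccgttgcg

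Of the 78 members, 58 had at least 1 start in the promoter table (69 starts in all), and 13 of these (22.4%) had a TOP run at an annotated start, against 3.01% of all genes in the table. An annotated start can lie some bases from the start used in these cells, so a run that misses the first base here says only that these letters are not at the annotated position. Among genes that are not members, the elongation factor genes Eef1a1 and Eef1b2, Tpt1 and the ribosomal protein gene Rps3a1 had no such run at the annotated start. The ribosomal protein gene Fau and the ribosome-bound scaffold gene Rack1, also not members, carry one.
Fau (chr19:6057937-6057966, plus strand): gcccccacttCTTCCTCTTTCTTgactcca
Rack1 (chr11:48800350-48800379, plus strand): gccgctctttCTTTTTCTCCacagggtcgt

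The data were 5′ single-cell RNA counts of unique molecular identifiers (UMIs, which tag single mRNA molecules) in 11754 cells, with 15556967 to 38440687 UMIs in 1725 to 4237 cells per library and a median of 7115 to 7669 UMIs per cell. UMIs were summed over the cells of each deposited cluster, in each library, and divided by the cluster's total (CPM, a gene's UMIs scaled to a common total, or percent). Because 5′ counts have 1 tag per molecule, levels of different genes were not divided by length. Intervals are exact 95% intervals for counting error only. With 1 library per group there was no test between groups, and since the clusters were drawn by the authors from these same counts, a difference between clusters was described by its size and by whether the direction was shared by all libraries. Most cluster names went with their markers. Ccr7, the lymph node homing receptor, was at 226 CPM in the naive cluster (Tn), Mki67, a proliferation marker, at 833 CPM in the cycling cluster and 6.6 CPM in Tn, and Pdcd1, which encodes PD-1, at 509 CPM in TIM-3+ exhausted cells (Tex) and 7.7 CPM in Tn. Some markers did not separate the named clusters. Havcr2, the gene for TIM-3, was as high in TIGIT+ effector cells (Teff), at 78.8 CPM, as in TIM-3+ Tex, at 76.7 CPM, the 5 central memory markers summed to 3247 CPM in GzmB+ Teff and 3054 CPM in the central memory cluster (Tcm), and the 5 effector markers were highest in TIM-3+ Tex, at 7487 CPM. The clusters are called by their deposited names, with 2 shortened. The cluster deposited as Tex_Cycling, and so named as exhausted, is called cycling here, and Transitionary_effector_cells is called transitory Teff. Teff and Tex together, as used below, leave out the cycling cluster. Barcodes found in 2 libraries numbered 56.

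The libraries stood apart in 2 ways that touch the members. First, many short members took a smaller share of member UMIs in library 1 than in library 3. This held in Tn, Tcm, cycling cells and Teff and Tex together. In Tn the share taken by Rpl38, Rps28 and Rps29, all with coding regions of 210 bases or less, differed between the highest and lowest library by 2.04, 1.99 and 1.91 times, while the median over 77 members was 1.13. Secondly, cells in which the members made up less than 10% of UMIs were mostly from libraries 1 and 3, with 313 and 264 such cells against 21 and 19 in libraries 2 and 4. Values for libraries 2 and 4 alone are therefore given beside the main results.

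Members made up 27.9% of all UMIs, and between 25.7% and 31.2% in the 4 libraries. Of the 78, 77 were above 10 CPM over all cells and 70 above 1000 CPM, with a median of 3726 CPM among those 77. Rps24, Rps15a and Rpl13 had the most UMIs, at 8439, 7441 and 7272 CPM, and the top 10 members held 23.2% of member UMIs. The exception at the low end was Rpl39l, a paralog of Rpl39 known for its role in male germ cells, with 70 UMIs in the whole table. Members lie on 19 chromosomes, with 14 of them on chromosome 7.

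Naive cells gave the largest share of their mRNA to ribosomal proteins. In Tn the members held 39.2% of UMIs (interval 39.208% to 39.266%), and the values in libraries 1 to 4 were 37.5%, 40.4%, 40.7% and 38.5%. Central memory cells (Tcm) were next at 33.3%, with library values of 32.3%, 35.2%, 33.4% and 33.4%. No library overlapped between these clusters, the lowest Tn value being above the highest Tcm value.

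Effector (Teff) and exhausted clusters covered a wide range below this. GzmB+ Teff were at 31.0% (29.1%, 32.5%, 31.4% and 31.3%), transitory Teff at 27.7% (25.9%, 29.9%, 26.0% and 28.1%) and GzmA+ Tex at 27.2% (25.4%, 30.1%, 26.0% and 27.8%). TIM-3+ Tex were lower, at 24.9% (23.8%, 27.2%, 24.3% and 25.2%), and TIGIT+ Teff the lowest of all clusters at 19.5% (19.5%, 22.8%, 17.5% and 24.2%). Cycling cells were at 21.001% (20.2%, 24.3%, 17.9% and 22.6%). The order Tn, Tcm, GzmB+ Teff held at the top of each library, and TIM-3+ Tex ranked sixth in each. Neighbours that changed places were transitory Teff with GzmA+ Tex, whose intervals touched in library 3, and cycling cells with TIGIT+ Teff, which changed places in library 4.

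**Figure D1:**
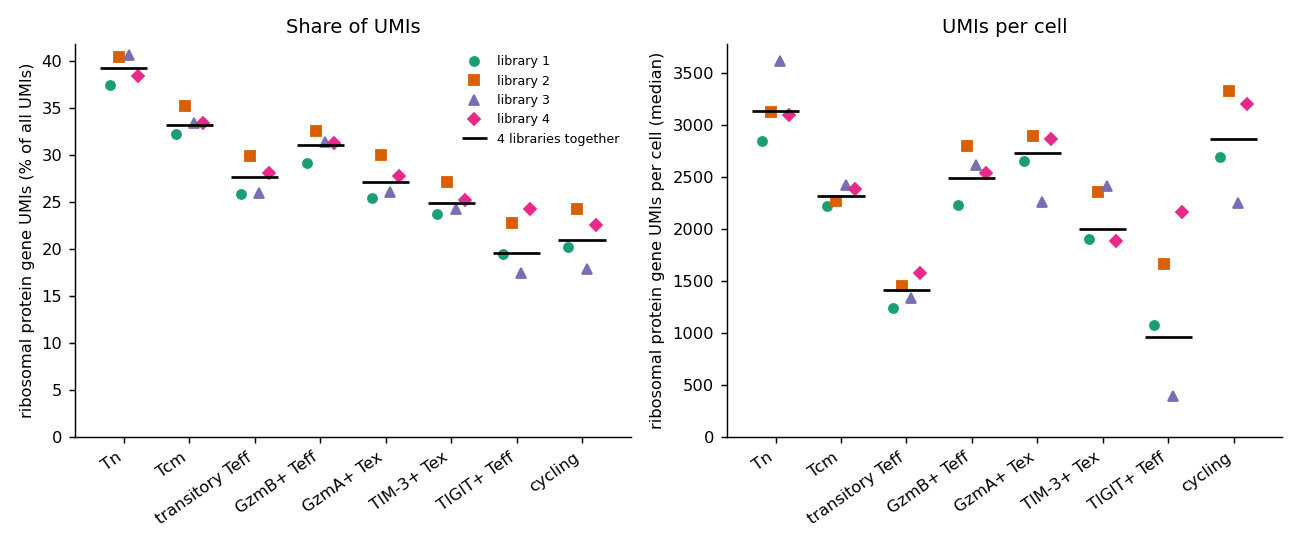
Ribosomal protein gene UMIs in each deposited cluster, as a percent of all UMIs (left) and as the median number per cell (right), with points for the 4 libraries and bars for the libraries together. On the left Tn lie between 37.5% and 40.7%, above each library of every other cluster, and on the right cycling cells (2864) lie near Tn (3138).

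As log2 ratios of the member share, the 5 Teff and Tex clusters together stood at -0.58 to Tn, which is 0.668 of the Tn share. The ratio was -0.64, -0.46, -0.77 and -0.47 in libraries 1 to 4. Cycling cells stood at -0.32 to Teff and Tex (-0.26, -0.28, -0.41 and -0.29) and Tcm at -0.24 to Tn (-0.22, -0.20, -0.28 and -0.20). Each of the 3 ratios was below 0 in all 4 libraries. In libraries 2 and 4 alone the values were -0.47, -0.30 and -0.22.

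By single cluster to Tn, the ratio was -0.34 in GzmB+ Teff, -0.50 in transitory Teff, -0.53 in GzmA+ Tex, -0.66 in TIM-3+ Tex, -0.90 in cycling cells and -1.005 in TIGIT+ Teff. TIGIT+ Teff had the least even values, at -0.94, -0.83, -1.22 and -0.67 in libraries 1 to 4. Against the other 4 Teff and Tex clusters, TIGIT+ Teff were at -0.49 (-0.38, -0.39, -0.65 and -0.20).

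A share of UMIs and a number of molecules per cell gave different pictures of cycling cells, and also of GzmA+ Tex. The median cell held 3138 member UMIs in Tn, 2320 in Tcm, 2490 in GzmB+ Teff, 1417 in transitory Teff, 2736 in GzmA+ Tex, 2004 in TIM-3+ Tex and 2864 in cycling cells. The cycling cluster thus had the lower share of its UMIs in members but nearly as many member UMIs per cell as Tn, with a median of 13960 UMIs of any gene per cell against 7834 in Tn. GzmA+ Tex, below Tcm and GzmB+ Teff in share, were above both in member UMIs per cell. For 24 of the 77 members above 10 CPM, cycling cells had more UMIs per cell than Tn. The same count over all genes was not made, so it does not set the members apart from other genes. TIGIT+ Teff were low on both scales, with a median of 960.5 member UMIs per cell, and library values of 1075, 1664.5, 398 and 2167.

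The ratios depend on what the member share is set against. Between Teff and Tex and Tn the median gene tested was higher by 0.30 (log2 of CPM), so that the members lay further below the median gene than below 0. With scaling by trimmed means (TMM), where the median gene stood at 0.04, the member ratio was -0.84 to Tn, and cycling cells to Teff and Tex were again at -0.32. Direction was the same under each scaling and denominator tried. Over UMIs without the members it could not change, since that ratio rises and falls with the member share.

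Nearly all members were lower in Teff and Tex than in Tn, by similar amounts. A gene was counted as lower or higher when its CPM ratio was past 1.5-fold on one side in all 4 libraries, among 7482 genes with at least 10 CPM. On this rule 7 of 77 members were lower in Teff and Tex, against 1.43% of all genes tested, and 0 were higher, against 10.9%. The count depends on the scaling. It was 43 with TMM (261 genes lower and 528 higher), 54 with median-of-ratios factors (295 and 495) and 59 over UMIs without the members (300 and 496), against 107 genes lower and 813 higher at the UMI total. At a smaller limit of 0.32 on the log2 scale 65 of 77 were lower, against 3.93% of genes, and 0 were higher, against 22.9%. By any amount in each library 75 of 77 were lower, against 10.8%. The median over the 77 was -0.56 with quartiles of -0.65 and -0.47, and 73 lay within 0.32 of the summed members. Rpl13a and Rps27l were the exceptions to the common direction.

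At the UMI total the 7 members past 1.5-fold were Rpl36a, Rps28, Rps19, Rps20, Rpl35, Rpl12 and Rpl23, the last of which fell outside the rule for naming genes and is named because the count was small. Rpl36a, a large subunit protein gene on chrX:134585654-134588062, had 2739 CPM in Tn (2372, 2888, 2980 and 2714 in libraries 1 to 4) and 1077 CPM in TIGIT+ Teff. Its ratio of Teff and Tex to Tn was -0.90 (interval -0.92 to -0.88), with library values of -0.96, -0.73, -1.14 and -0.74. Rps19, a small subunit protein gene on chr7:24884371-24889806 whose human form is mutated in Diamond-Blackfan anaemia, stood at -0.89 (-0.96, -0.68, -1.07 and -0.78), from 6552 CPM in Tn. Both lay below the summed members in each library.

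Rps28, which encodes a small protein near the mRNA exit of the small subunit, was at -0.90 (-0.87, -0.62, -0.97 and -0.66). Its level in Tn ran from 2867 CPM in library 1 to 6186 CPM in library 3, a spread among libraries wider than the difference between Teff and Tex and Tn within any library. Rps29 was at -0.86 (-0.87, -0.58, -0.88 and -0.64) and showed the same spread. Pooled values weight the libraries by their UMIs, which differ between Tn and Teff and Tex, and the median of the 4 libraries was -0.77 for Rps28 and -0.76 for Rps29. Rps20 (-0.77), Rpl35 (-0.76) and Rpl12 (-0.72) were also among the lowest 8 and were below 0 in each library.

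At the other end, Rps27l was the only member higher in Teff and Tex in each of the 4 libraries. It stood at 0.39 (0.40, 0.39, 0.08 and 0.54), and 56% of genes tested were also higher by any amount in each library. Rpl13a, which encodes a large subunit protein also known from interferon-dependent translation control, was nearly level at -0.07 (-0.05, -0.06, -0.15 and 0.03). Rpl27 (-0.21), Rpl7a (-0.29), Rps15a (-0.36), Rpl11 (-0.38) and Rpl24 (-0.39) were also among the highest 8, and all 5 were below 0 in each library. Among these Rps15a is one of the 3 members with the most UMIs.

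**Figure D2:**
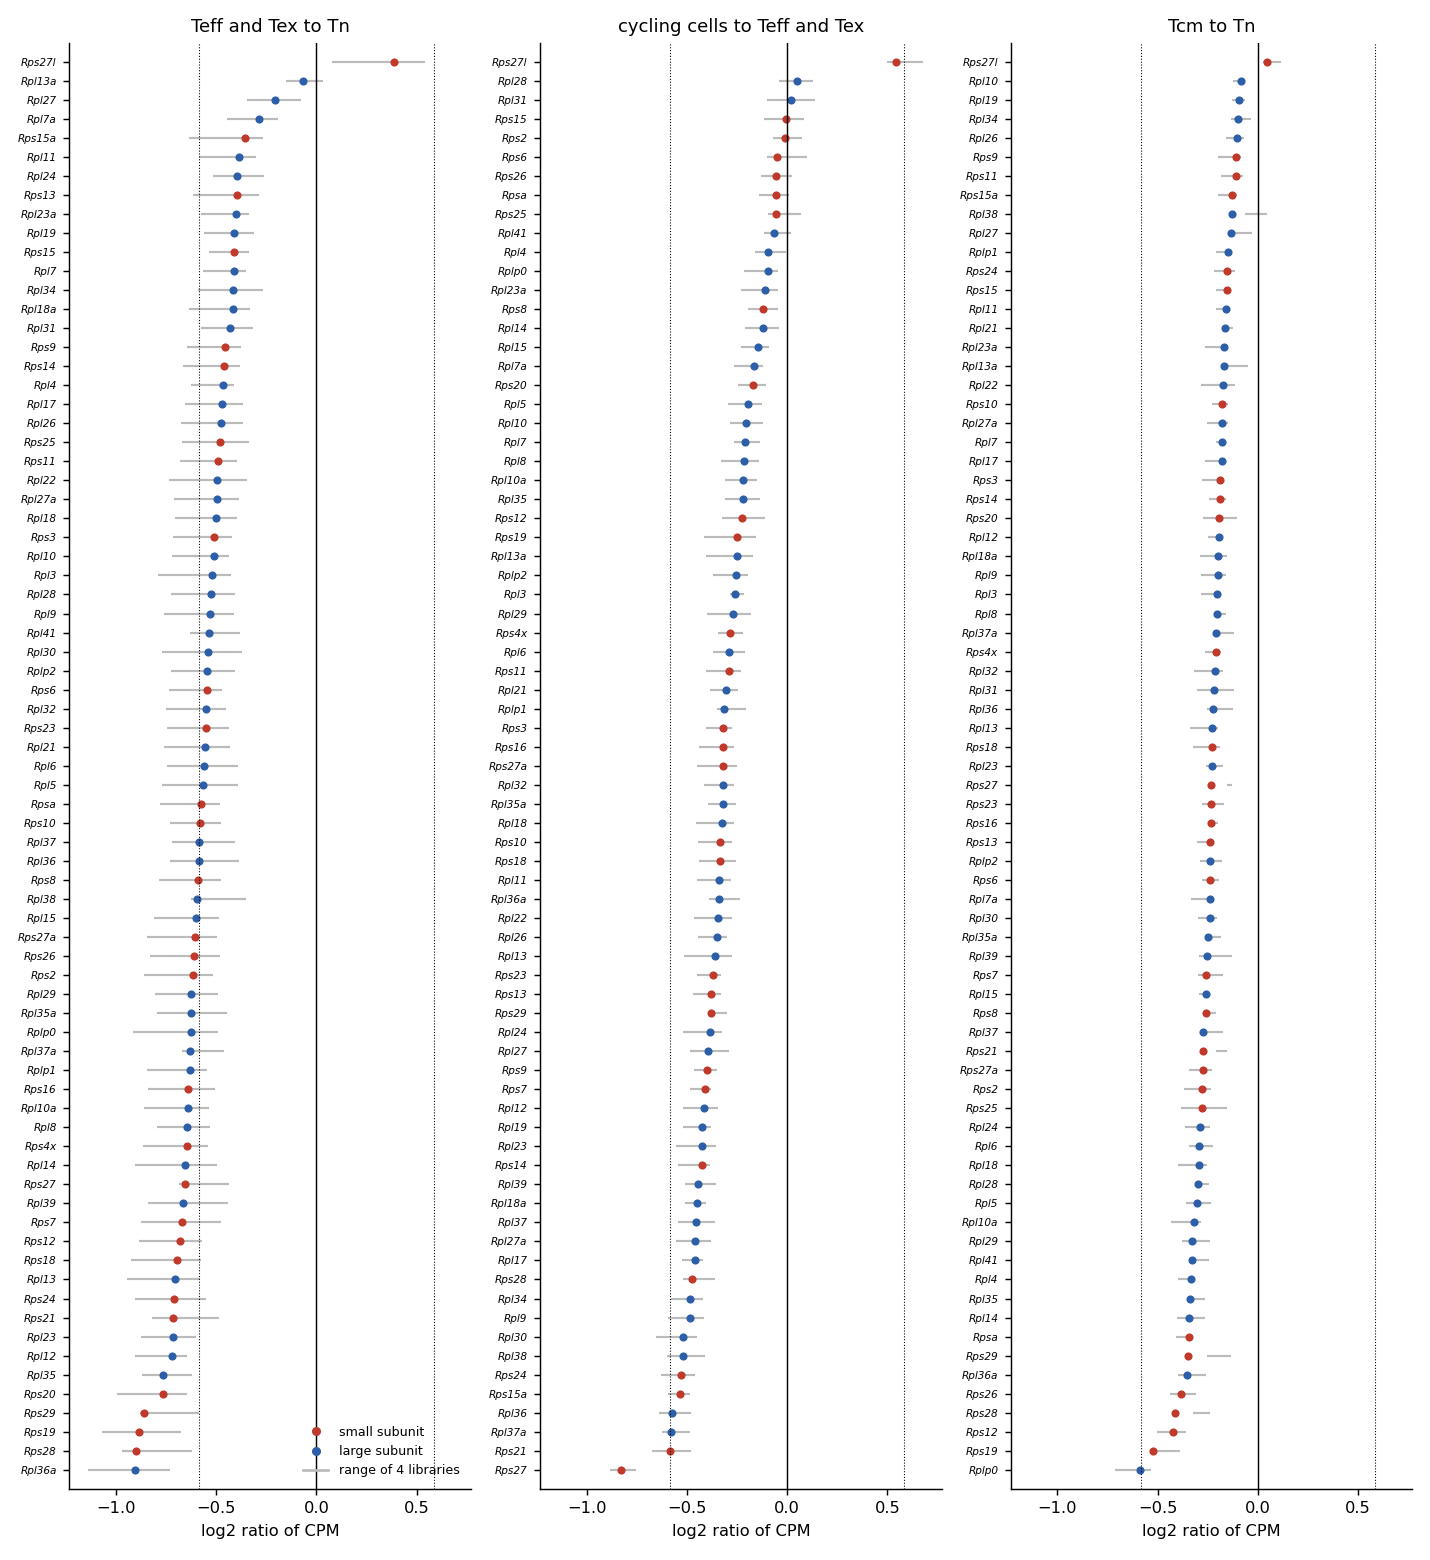
Log2 CPM ratio of the members reported here, ranked from highest at the top, for Teff and Tex to Tn, cycling cells to Teff and Tex, and Tcm to Tn. Points are all libraries together (red for small and blue for large subunit), grey bars the range of the 4 libraries, and dotted lines 1.5-fold. Most members lie in a narrow band below 0, and Rps27l stands above 0 at the top of each panel.

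Between cycling cells and Teff and Tex the members were lower again, at -0.32. In cells of 5000 to 10000 UMIs this ratio was -0.70, and that of Teff and Tex to Tn was -0.58. This band holds a different mixture of cells. Cycling cells with less than 10% of UMIs from members had a median of 5081 UMIs and the other cycling cells 15260. In TIGIT+ Teff these medians were 3170 and 9336. The part of this mixture in the ratio was not tested. One of 77 passed 1.5-fold lower in each library, against 2.71% of 7720 genes, and 0 passed higher, against 7.89%. Past 0.32 on the log2 scale 25 were lower, against 7.94%, and 66 were lower by any amount, against 30.6%. The median member was at -0.32, the median gene at 0.03, and 72 members lay within 0.32 of the summed members.

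The member past 1.5-fold was Rps27, on chr3:90212522-90213651, which encodes a zinc-binding protein of the small subunit. It had 5989 CPM in Tn (4366, 6665, 6957 and 5946), 5100 in Tcm, 4774 in GzmB+ Teff, 4128 in transitory Teff, 3830 in GzmA+ Tex, 3359 in TIM-3+ Tex, 2809 in TIGIT+ Teff and 2142 in cycling cells (1611, 2910, 2346 and 2475). Its ratio of cycling cells to Teff and Tex was -0.83 (-0.76, -0.76, -0.88 and -0.75), and under the alternatives it ran from -1.23 to -0.79. After it came Rps21 (-0.59), Rpl37a (-0.58), Rpl36 (-0.57), Rps15a (-0.53), Rps24 (-0.53), Rpl38 (-0.52) and Rpl30 (-0.52), each below 0 in all 4 libraries. Rps24, the member with the most UMIs, went from 12529 CPM in Tn to 5310 CPM in cycling cells.

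Rps27l, on chr9:66946086-66949516, encodes a close paralog of the Rps27 protein and is a known p53 target, and it was the member highest in cycling cells. Its levels were 146 CPM in Tn (138, 159, 147 and 140), 186 in transitory Teff, 173 in GzmB+ Teff, 222 in GzmA+ Tex, 221 in TIM-3+ Tex, 135 in TIGIT+ Teff and 277 in cycling cells (258, 334, 224 and 311). Each library of cycling cells was above each library of Tn, but this was not counted over all genes and does not set Rps27l apart from them. The ratio of cycling cells to Teff and Tex was 0.54 (0.50, 0.68, 0.53 and 0.61), against 14.7% of genes tested that were past 0.32 higher in each library and 36% higher by any amount, and it ran from 0.24 to 0.69 under the alternatives.

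The pair thus went in opposite directions, Rps27 at -0.83 and Rps27l at 0.54. Their coding regions have the same length, 252 bases. Reads of Rps27 may be shared with Rps27rt, a near-identical copy with 23527 UMIs or 5.36% of both, which stood at -0.65 in the same comparison.

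**Figure D3:**
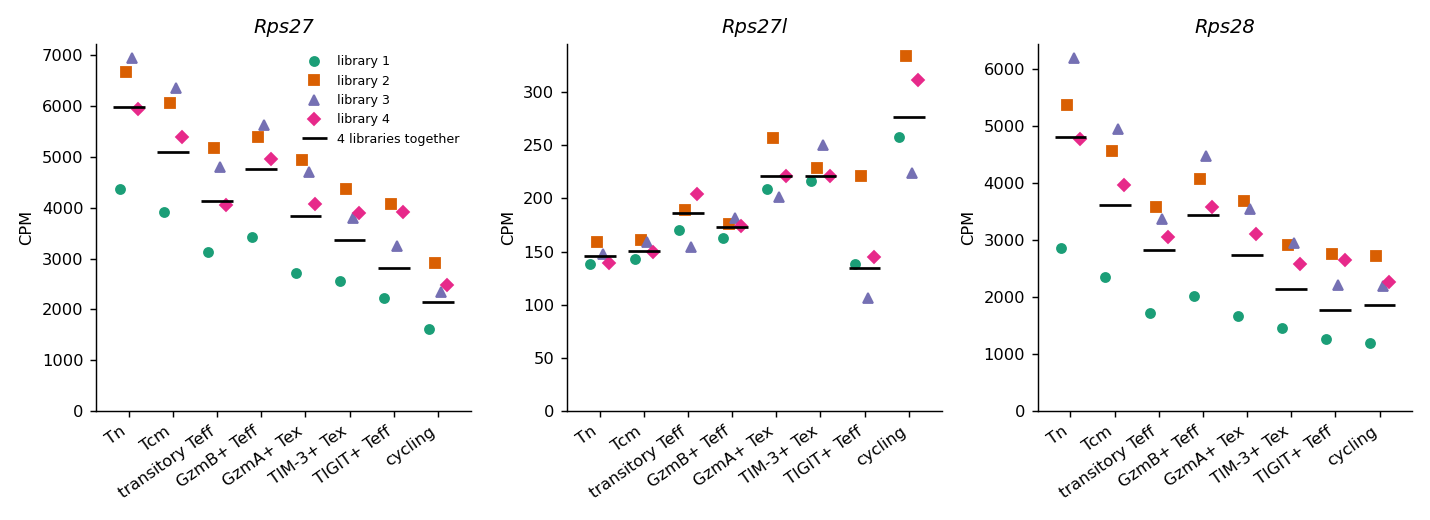
CPM of Rps27, Rps27l and Rps28 in each deposited cluster, with points for the 4 libraries, bars for the libraries together and axes that start at 0. Rps27 is highest in Tn (5989 CPM) and lowest in cycling cells (2142 CPM), Rps27l is highest in cycling cells (277 CPM), and library 1 is lowest for Rps28 in each cluster.

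Other members were close to level between cycling cells and Teff and Tex. Rpl28 (0.05), Rpl31 (0.02), Rps15 (-0.00), Rps2 (-0.01), Rps26 (-0.05) and Rps6 (-0.05) had libraries on both sides of 0. Not all of them kept their sign: Rpl28 was below 0 under 3 alternatives, Rpl31 ran from -0.22 to 0.06 and Rps15 from -0.31 to 0.03.

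Tcm differed least from Tn. None of 77 members passed 1.5-fold in each library in either direction, against 0.95% of 7159 genes lower and 4.36% higher. Past 0.32 on the log2 scale 5 were lower, against 2.35%, and 0 higher, against 10.4%. By any amount 75 were lower, against 11.9%, and Rps27l alone was higher, against 38.9%, at 0.05 (0.06, 0.02, 0.11 and 0.10). These 5 were Rplp0, Rps19, Rps12, Rpsa and Rpl4. Rps19 stood at -0.52 (-0.50, -0.39, -0.51 and -0.49) and Rps12, chosen for mention after its values were seen, at -0.42 (-0.46, -0.36, -0.50 and -0.43). For 13 members the pooled ratio lay outside the range of the libraries, as with Rpl38, at -0.13 pooled and between -0.06 and 0.05 in single libraries.

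By subunit, the small and large members kept nearly the same proportion. The ratio of small to large subunit UMIs was 0.803 over all cells (interval 0.8023 to 0.8035). It was 0.821 in Tn, 0.813 in Tcm, 0.784 in transitory Teff, 0.802 in GzmB+ Teff, 0.794 in GzmA+ Tex, 0.787 in TIM-3+ Tex, 0.787 in TIGIT+ Teff and 0.801 in cycling cells. The distance between the highest and lowest cluster is under 5% of the ratio, while the member share differed 2-fold.

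The stalk of the large subunit is built by P0, which anchors it, and copies of P1 and P2, and it recruits the elongation factors. Their genes did not follow one another in Tcm. Rplp0, on chr5:115559467-115563727, had 8384 CPM in Tn (8101, 8613, 8680 and 8182) and 5582 in Tcm (5501, 5816, 5297 and 5655). No library of Rplp0 overlapped between these clusters, but the same was not counted over all genes. The ratio of Tcm to Tn was -0.59 for Rplp0 (-0.56, -0.57, -0.71 and -0.53), while Rplp1 was at -0.15 (-0.17, -0.13, -0.21 and -0.17) and Rplp2 at -0.24 (-0.21, -0.18, -0.29 and -0.22). From Tn to Teff and Tex the 3 were alike, at -0.63 for Rplp0, -0.63 for Rplp1 and -0.55 for Rplp2. Beside its 5582 CPM in Tcm, Rplp0 was at 5997 CPM in transitory Teff, 6122 in GzmB+ Teff, 5386 in TIM-3+ Tex and 5281 in GzmA+ Tex, and TIGIT+ Teff had 3791 CPM. In cycling cells to Teff and Tex it was at -0.10, Rplp1 at -0.31 and Rplp2 at -0.25.

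Members with a further role followed the summed members from Tn to Teff and Tex. Rps27a, made as a fusion of ubiquitin with a small subunit protein, was at -0.61 (-0.69, -0.49, -0.84 and -0.49), and Rpsa, also known as the laminin receptor, at -0.58 (-0.64, -0.48, -0.78 and -0.48). Rps6, the protein phosphorylated by S6 kinase downstream of mTOR, was at -0.55 (-0.63, -0.47, -0.73 and -0.48). In cycling cells Rps27a was at -0.32, as were the members together, and Rpsa and Rps6 were at -0.05. Fau, a fusion gene outside the rule, was nearer to 0 in Teff and Tex, at -0.21.

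Of members with a close paralog, Rpl22 was at -0.49, Rpl3 at -0.52 and Rpl39 at -0.67 in Teff and Tex to Tn. Of 7 listed paralog genes, 4 could be compared, Rps27l among them, with a median of -0.17. Rpl22l1 was at -0.39, Rpl36al at -0.31 and Rpl7l1 at -0.03. No paralog was past 1.5-fold in each library. For Rpl39l the cluster counts ran from 2 to 26 UMIs, which is too few to place it.

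Across the 32 combinations of cluster and library, most members followed the sum of the others. The Pearson correlation of log2(CPM + 1) with the other members was -0.32 for Rps27l, 0.38 for Rpl13a, 0.65 for Rpl38, 0.70 for Rpl27, 0.72 for Rps29, 0.75 for Rps28 and, at the top, 0.986 for Rpl35a. These points share libraries and cell totals and are given as a description. Among genes that are not members, those most like the summed members were Eef1b2 (0.971), an elongation factor subunit gene, Rps3a1 (0.962), the small subunit gene that the symbol rule missed, Tpt1 (0.956), which encodes a translationally controlled tumour protein, Rack1 (0.935) and Smim4 (0.930). Of the TOP run, the 13 members with one at an annotated start had a median of -0.60 in Teff and Tex to Tn and the 44 without one -0.54. In cycling cells these medians were -0.32 and -0.33, and in Tcm -0.24 and -0.23.

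In 2 clusters some cells stood apart, with a much lower share of ribosomal protein mRNA than the rest of the cluster. Cells with less than 10% of UMIs from members, a limit set after the values were seen, numbered 617 or 5.25% of all cells. TIGIT+ Teff held 321 of them (39.3% of that cluster) and cycling cells 279 (14.5%), against 11 in GzmA+ Tex, 5 in GzmB+ Teff, 1 in Tn and none in Tcm, transitory Teff and TIM-3+ Tex. By library they were 35.3%, 22.0%, 53.5% and 18.6% of TIGIT+ Teff and 18.1%, 4.37%, 31.99% and 1.53% of cycling cells. Cells at 8% to 12%, on either side of the limit, numbered 51 in TIGIT+ Teff and 50 in cycling cells.

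**Figure D4:**
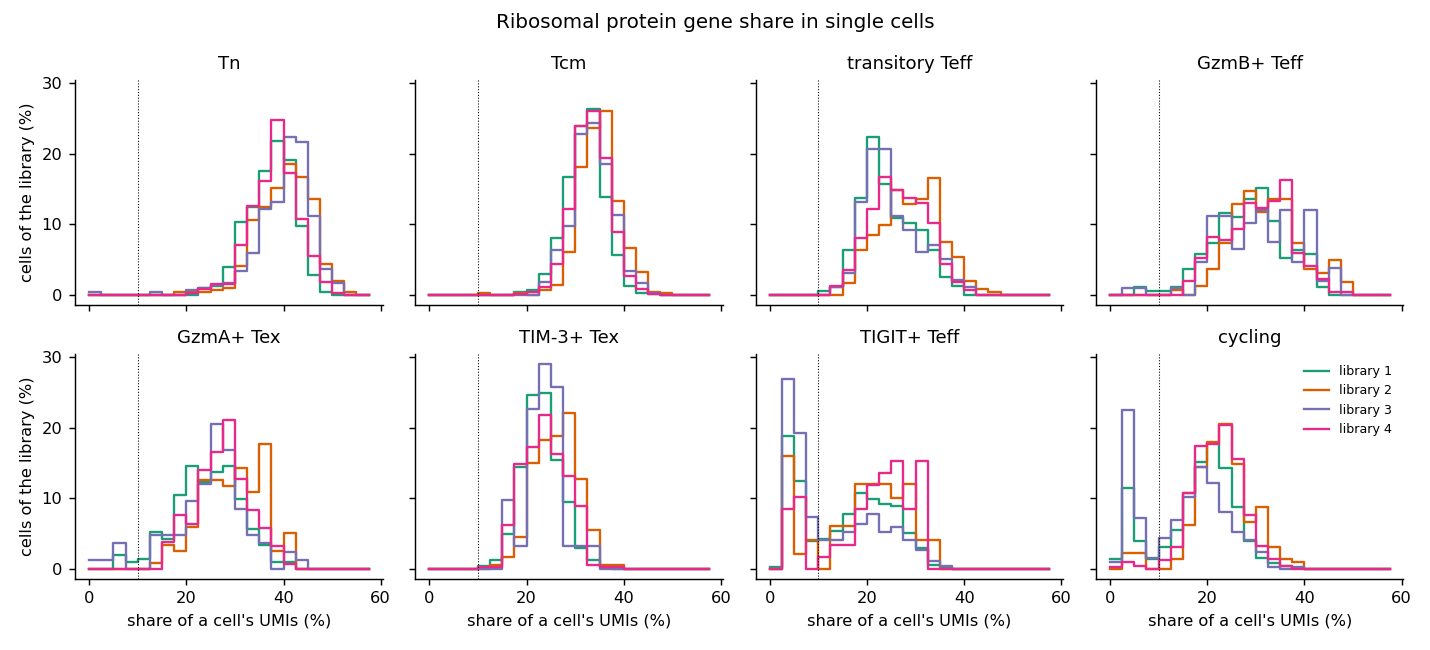
Distribution over single cells of the percent of a cell's UMIs from ribosomal protein genes, by cluster, as the percent of the cluster's cells in each library (1 line per library), with the 10% limit as a dotted line. TIGIT+ Teff and cycling cells have a second group of cells near 5%, tallest in libraries 3 and 1, and the other clusters have 1 main group.

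These cells differed in other measures. In TIGIT+ Teff their median was 3170 UMIs, with 4.47% mitochondrial UMIs and 11908 CPM of the nuclear RNA Malat1, while the other TIGIT+ Teff had 9336 UMIs, 2.44% and 5367 CPM. In cycling cells the medians were 5081 against 15260 UMIs and 3.92% against 1.70% mitochondrial UMIs, with Malat1 at 7155 against 2138 CPM. Members held 5.35% of UMIs in the low TIGIT+ Teff and 4.84% in the low cycling cells. Without the low cells and with the libraries together, TIGIT+ Teff were at 22.7% and cycling cells at 22.0%, below the 24.9% of TIM-3+ Tex. Of the 495 TIGIT+ Teff left, 282, 39, 126 and 48 were from libraries 1 to 4. This order was not read in single libraries, so it may not hold in each. The part of RNA quality in these cells was not tested.

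The members left in the low cells were a different mixture. As a share of member UMIs in library 1, Rpl4 was higher in the low TIGIT+ Teff than in the other TIGIT+ Teff by 0.99 (log2), Rpl3 by 0.86, Rps2 by 0.91 and Rpl5 by 0.62, and in library 3 by 1.21, 0.90, 0.88 and 0.62. Rpl39 was at -0.93 and -0.88 in these libraries and Rpl35 at -0.66 and -0.52. In cycling cells Rpl4 was at 0.995 and 1.29, Rpl3 at 0.77 and 1.04, and Rpl39 at -0.60 and -0.91. The genes for long proteins thus took a larger share and those for short proteins a smaller one.

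Coding length ordered the whole family in this respect. Across the 77 members, the log2 share in low cells against other cells had a Pearson correlation with log2 coding length of 0.73 and 0.76 in TIGIT+ Teff of libraries 1 and 3, and of 0.73 and 0.77 in cycling cells. The 20 shortest members, of 369 bases or less, had medians of -0.33, -0.41, -0.33 and -0.49 in these 4 sets, and the 20 longest, of 612 bases or more, had 0.33, 0.45, 0.25 and 0.35. Members are not independent points, so no test was made.

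The difference between libraries 1 and 3 named at the start was also ordered by length, but was largest in a few short members. The log2 ratio of library 1 to library 3 in the share of member UMIs had a Pearson correlation with log2 coding length of 0.67 in Tn, 0.67 in Teff and Tex and 0.67 in cycling cells. In Tn, Rpl38 was at -1.03, Rps28 at -0.99 and Rps29 at -0.93, the 20 shortest had a median of -0.28 and the 20 longest 0.15. Rpl41, the shortest at 75 bases, was at -0.35. Rps27l, as short as Rps27, was at 0.02, and the highest of the 20 shortest was Rplp1 at 0.21. For differences between clusters the Pearson correlation with length was 0.11 for Teff and Tex to Tn, 0.20 for cycling cells to Teff and Tex and -0.04 for Tcm to Tn. In cycling cells to Teff and Tex the Spearman correlation was 0.36, and the 20 shortest had a median of -0.41 and the 20 longest -0.20.

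**Figure D5:**
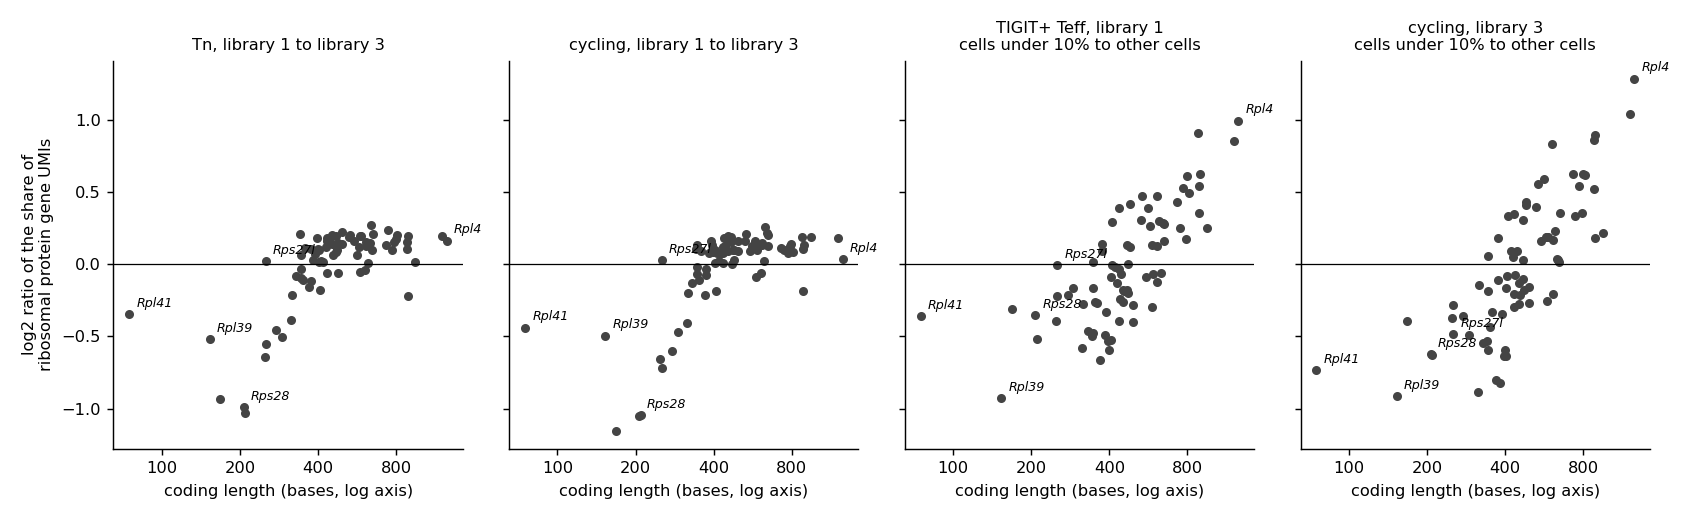
Log2 ratio of each member's share of ribosomal protein gene UMIs against coding length (log axis), for library 1 to library 3 in Tn and in cycling cells, and for cells under 10% to other cells in TIGIT+ Teff of library 1 and cycling cells of library 3. Most of the shortest members lie below 0 in all 4 panels, with Rps28 near -1 between libraries, while Rpl4, the longest at 1257 bases, reaches 0.99 and 1.29 in the low cells.

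Other genes of translation were read beside the members from lists. Of all genes tested, 10.9% were past 1.5-fold higher and 1.43% lower in Teff and Tex to Tn, and 7.89% and 2.71% in cycling cells to Teff and Tex, and the counts below stand beside these shares. The median gene tested was at 0.30 in the first comparison and 0.03 in the second, and the list medians below stand beside these values. Elongation factors, which carry out each step of peptide growth, had a median of -0.31 over 9 genes in Teff and Tex to Tn, with 0 past 1.5-fold in each library. Eef1b2 was the lowest at -0.74, Eef1a1 was at -0.31, and the termination factor genes Etf1 and Gspt1 were at 0.24 and 0.22. Initiation factors, which bring ribosomes to mRNA, had a median of -0.01 over 29 genes, from Eif3i at -0.33 to Eif4g2 at 0.42. Eif1ax was the 1 of 29 past 1.5-fold, higher in cycling cells at 0.62.

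Other known TOP mRNAs that are not members had a median of -0.27 over 14 genes, with 1 lower, the nucleolar chaperone gene Npm1 at -0.70, and 1 higher, the histone chaperone gene Nap1l1 at 1.01. Rack1 was at -0.54 and Tpt1 at -0.40. Genes that regulate TOP mRNAs and ribosome supply had a median of 0.21 over 15 genes. Myc, the transcription factor that drives ribosome synthesis, was the 1 of 15 past 1.5-fold, lower at -0.99 with libraries between -1.25 and -0.86. Larp1 was at -0.26, Mtor at 0.56 and Tsc2, an inhibitor of mTOR, at 0.61. The Larp1 value joins clusters that differ. Larp1 had 107 CPM in Tn and 150 CPM in TIGIT+ Teff, but 69.5 to 94.6 CPM in the other Teff and Tex clusters.

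Ribosome biogenesis genes, which make rRNA and assemble subunits in the nucleolus, had a median of -0.28 over 50 genes in Teff and Tex to Tn. The 2 of 50 past 1.5-fold were Fbl, the rRNA methyltransferase gene, lower at -0.71, and Npm1, while Ubtf, for a factor of RNA polymerase I transcription, was at 0.58. In cycling cells to Teff and Tex their median was 0.09 and that of the members -0.32, with Lyar at 0.71, Nop58 at 0.55 and Nop56 at 0.51. Mitochondrial ribosomal proteins, which translate the mRNAs of mitochondria, had medians of 0.05 in Teff and Tex and 0.20 in cycling cells over 77 genes, and 3 of 77 were past 1.5-fold higher in cycling cells, Mrpl18 (0.79), Mrpl49 (0.74) and Mrpl51 (0.67), a smaller share than among all genes. Ribosome quality control genes had a median of 0.30 over 10 genes and none past 1.5-fold. In Teff and Tex to Tn, the translation lists with medians nearest to the members were elongation factors, biogenesis genes and other TOP mRNAs, each nearer to 0 than the members. This did not hold in cycling cells to Teff and Tex, where biogenesis genes were above 0.

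Markers of other cell types were measured beside the clusters. The 6 macrophage genes, none of them at 0 in any cluster, summed to 1388 CPM in GzmA+ Tex (925 to 1618 in single libraries) and to between 6.2 and 76.5 CPM in the other clusters. The 5 plasma cell genes summed to between 32.4 and 160 CPM by cluster, with 1 of them at 0 in 4 clusters. Cd8a, which defines the sorted cells, was between 328 and 1081 CPM in the 8 clusters. Without GzmA+ Tex, an alternative chosen after seeing the data, Teff and Tex stood at -0.59 to Tn, and without TIGIT+ Teff at -0.52. The part of macrophage RNA in the member share was not tested.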

How the data were processed

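CD8+ T cells were sorted from BM of 5 pooled mice per group and captured on a 10x 5′ platform. The authors deposited UMI counts per gene and cell, made with Cell Ranger (7.00 and mm10 in the submitters' processing notes) with reads downsampled to like depth, for cells above 2500 UMIs, below upper limits on UMIs and mitochondrial share, and expressing Cd3e or Cd3g and Cd8a. Whether intronic reads were counted, the annotation and any doublet removal are not given in the sources used here; no doublet caller was run. The deposited table of cells gives the mitochondrial share as a fraction, the library number, the Leiden cluster and the cluster name. The deposited contig table was used only for which cells had a TCR and for clone size.

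Counts were summed by cluster name and library in Python 3.11.15 (numpy 2.4.6, scipy 1.17.1, pandas 2.3.3) and plotted with matplotlib 3.10.9. Shares have Clopper-Pearson intervals, CPM exact Poisson intervals and ratios exact conditional binomial intervals, all 95% and for counting error only. Depth was 15556967 to 38440687 UMIs per library. A gene was compared from 10 CPM over the cells compared. R 4.3.3 with edgeR 4.0.16 gave TMM factors as an alternative scaling and no test. Coding lengths are of GENCODE M21 principal transcripts, and start sequences are RefSeq's. Calculations were tested on simulated counts.

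Named were, for Teff and Tex to Tn and cycling cells to Teff and Tex, the 8 highest and 8 lowest members from 50 CPM, the 3 members with the most UMIs, the stalk, paralog and fusion genes, Rpsa and Rps6, and the extremes and calls of the other lists; a few genes that the rule names are not reported here. The members and lists were chosen with earlier results of these data known. Libraries could not be tied to treatments, so no treatment comparison was made. Alternatives covered scaling, denominator, depth, cell labels, cells used, libraries, weighting, fold and the low-value filter.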

Additional observations from a re-analysis of the deposited data

How the results depend on the processing

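No ratio changed direction for the members together, though over UMIs without the members none could. In the order Teff and Tex to Tn, cycling cells to Teff and Tex and Tcm to Tn, the log2 ratios (-0.58, -0.32 and -0.24) were -0.84, -0.32 and -0.34 with TMM, -0.87, -0.35 and -0.37 with median-of-ratios factors, and -0.86, -0.42 and -0.37 over UMIs without the members. They were -0.66, -0.36 and -0.23 with cells thinned to 2500 UMIs, -0.58, -0.70 and -0.25 in cells of 5000 to 10000 UMIs, -0.56, -0.31 and -0.21 by Leiden number, -0.66, -0.36 and -0.23 as a mean over cells, and -0.56, -0.29 and -0.21 as a median of libraries. The first and second were -0.58 and -0.32 without mitochondrial UMIs, -0.60 and -0.39 in cells with a TCR, and -0.58 and -0.33 without cells holding a macrophage or plasma cell UMI. Leaving out 1 library gave -0.63 to -0.53, -0.35 to -0.30 and -0.25 to -0.22. Alternatives chosen after seeing the data gave -0.47, -0.30 and -0.22 in libraries 2 and 4 alone, -0.52 and -0.38 without TIGIT+ Teff, and -0.59 and -0.31 without GzmA+ Tex.

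Counts past 1.5-fold in each library (7, 1 and 0) were 43, 1 and 1 with TMM, 54, 1 and 1 with median-of-ratios factors, 59, 2 and 1 without members in the denominator, and 65, 26 and 5 at a limit of 0.32 on the log2 scale in either direction. The first count was 12 in thinned cells, 11 without macrophage or plasma cell UMIs, 9 without mitochondrial UMIs, 9 without GzmA+ Tex, 6 without TIGIT+ Teff and 5 by Leiden number. First and second counts were 12 and 7 in cells of 5000 to 10000 UMIs, 12 and 6 in cells with a TCR, and 7 and 2 in libraries 2 and 4. Leaving out 1 library gave 7 to 12 (12 without library 2), 1 and 0. No minimum, or 50 CPM, left 7, 1 and 0.

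The small to large subunit ratio (0.803) was 0.808 in cells of 5000 to 10000 UMIs, 0.806 with a TCR, 0.804 without macrophage or plasma cell UMIs and 0.801 to 0.804 with 1 library left out. In cycling cells Rpl28 was at -0.050 without members in the denominator, -0.26 at 5000 to 10000 UMIs and -0.016 without TIGIT+ Teff, and Rps6 at 0.0028 in cells with a TCR. The causes of these differences were not tested. No paired analysis was possible because no test was made, each group being 1 library; ratios of clusters within each library stand beside the pooled ones.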

Other observations

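Member share by clone size was read in cells with a TCR. In GzmB+ Teff, cells whose clone had 1 cell were at 34.5% of UMIs and cells of clones of 2 or more at 24.96%. The values were 33.0% and 22.1% in library 1, 35.7% and 27.9% in library 2, 35.6% and 22.4% in library 3 and 34.0% and 25.7% in library 4, and the groups also differed in median UMIs per cell, at 7733 and 4766. The same direction was seen in GzmA+ Tex (30.8% and 22.7%), TIGIT+ Teff (17.0% and 12.2%), cycling cells (23.1% and 18.7%), TIM-3+ Tex (26.1% and 22.8%), transitory Teff (28.6% and 25.9%) and Tn (39.5% and 37.1%), and in Tcm the values were 33.5% and 33.0%. Larger clones held 34 cells in Tn, and clones of 1 held 42 in TIM-3+ Tex. In TIGIT+ Teff the median cell was at 7.57% in clones of 1 and 6.46% in larger clones, so low cells weigh on both. By library, TIGIT+ Teff were read in libraries 1 and 3 and GzmA+ Tex in libraries 1, 2 and 4. Tn, Tcm and TIM-3+ Tex were not read by library.

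When a cluster was split by UMIs per cell into 3 equal parts, the shallowest part had a lower member share than the deepest, at 7.03% and 23.4% in TIGIT+ Teff, 15.6% and 22.7% in cycling cells and 37.5% and 39.4% in Tn. The genes most unlike the summed members over clusters and libraries were Actr3 (Pearson correlation -0.960), for a subunit of the actin-branching complex, Lcp1 (-0.956), for the actin-bundling protein L-plastin, and Lrrfip1 (-0.955). The motif CCGGAAG, on either strand of the 300 bases around the start, was in 37.7% of the 69 member promoters, 15.7% of those of protein-coding genes of the count table and 8.86% of all promoters, and it was not set against expression.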
